A study of Mus musculus with 4 samples.

Results

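The genes examined here encode 9 transcription factors that carry the rhythm of the circadian clock to other genes or close its side loops. They are Dbp, Tef, Hlf, Nfil3, Nr1d1, Nr1d2, Rora, Bhlhe40 and Bhlhe41, and were taken by symbol as a known functional group, with earlier results of these data known. All 9 were found among the 29190 genes of the deposited count table, each in a single row, and all 9 passed the filter on low counts that left 17419 genes for testing. RNA was measured in whole kidney of 8-week-old male C57 mice, in 2 libraries from animals injected with cisplatin at 30 mg/kg body weight and 2 from animals injected with physiological saline. Cisplatin, a platinum chemotherapy drug, forms DNA crosslinks and is toxic to kidney tubules. The protocol divided 18 mice into 3 groups and killed them 24 h or 48 h after cisplatin. The sources used here do not give which of these times the cisplatin libraries represent, nor the hour of the day at which any animal was killed. Most of these transcripts swing over the day in normal tissue, so a difference in hour between the groups, if there was one, cannot be told apart from the drug.

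The core clock is a feedback loop in which CLOCK or NPAS2, paired with BMAL1 (encoded by Arntl), activates genes through E-box elements, among them the Per and Cry genes whose products shut the pair off. The proline- and acid-rich (PAR) bZIP factors DBP, TEF and HLF are driven by this loop and activate output genes through D-box elements, which the repressor NFIL3 also binds. REV-ERB-alpha (Nr1d1) and REV-ERB-beta (Nr1d2) repress, and ROR-alpha (Rora) activates, at ROR elements, the best known of which lie in Arntl. DEC1 (Bhlhe40) and DEC2 (Bhlhe41) repress at E-boxes and are also induced by hypoxia and other stress. In kidney and liver the PAR bZIP factors are known to sustain genes of detoxification and transport.

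Promoter windows of 250 bases before to 50 bases after the RefSeq start (GRCm38.p6) were found for 8 of the 9 members, with 9 windows in all. Bhlhe40 had no window and was not searched. They were searched on both strands for the E-box CACGTG, the D-box in the forms TTATGTAA and TTACGTAA, and the core of the ROR element in the forms TAGGTCA and TGGGTCA. No member window held matches of more than 1 kind. The E-box stood in 3 member windows, 2 of Tef and 1 of Bhlhe41, against 7.15% of all 32851 windows. The ROR core stood in 1, that of Nfil3, against 6.45% of all windows. No member window held the D-box, which occurred in 1.06% of all windows. The stretches below are printed because they carry the matches in members and, for comparison, in the 2 core clock genes Arntl and Per3, whose windows held the ROR core and a pair of D-boxes. Capitals mark the match, and in Nfil3 they read as the reverse complement of TAGGTCA.
Nfil3 (chr13:52980990-52981289, minus strand): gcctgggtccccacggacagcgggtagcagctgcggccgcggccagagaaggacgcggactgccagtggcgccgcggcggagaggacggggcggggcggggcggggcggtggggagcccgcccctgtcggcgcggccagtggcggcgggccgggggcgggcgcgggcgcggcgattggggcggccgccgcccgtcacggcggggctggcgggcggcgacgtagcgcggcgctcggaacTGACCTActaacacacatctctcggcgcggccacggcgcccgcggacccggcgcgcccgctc
Arntl (chr7:113207511-113207560, plus strand): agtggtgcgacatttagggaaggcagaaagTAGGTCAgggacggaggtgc
Tef, first window (chr15:81802516-81802581, plus strand): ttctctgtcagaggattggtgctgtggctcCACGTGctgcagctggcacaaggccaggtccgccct
Tef, second window (chr15:81811246-81811311, plus strand): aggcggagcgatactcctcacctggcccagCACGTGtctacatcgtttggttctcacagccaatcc
Bhlhe41 (chr6:145865538-145865603, minus strand): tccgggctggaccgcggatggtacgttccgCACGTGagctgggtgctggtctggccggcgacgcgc
Per3 (chr4:151044786-151044900, minus strand): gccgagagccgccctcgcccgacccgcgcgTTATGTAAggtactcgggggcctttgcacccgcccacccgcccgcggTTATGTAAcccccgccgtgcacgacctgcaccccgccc

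The Nfil3 match began 12 bases before the start, those of Tef 127 and 138 bases before the starts of their windows, and that of Bhlhe41 153 bases before the start. The ROR core of Arntl began 31 bases after its start, and the D-boxes of Per3 205 and 158 bases before its start. Of the other core clock genes, Per1 and Cry1 had an E-box, 166 and 60 bases before the start, and Per2 had no window to search. A match describes the letters in a window and is no evidence of binding in these kidneys, and windows without a match may hold such elements elsewhere in the gene.

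Library totals ran from 20662475 to 27122403 counts. Levels are CPM, the reads of a gene relative to all reads of its library, scaled by the trimmed mean of M values (TMM), log2 fold changes set cisplatin over saline, and a gene was called at a Benjamini-Hochberg adjusted p under 0.05 over all tested genes. By edgeR's quasi-likelihood test 73.6% of all tested genes were called, 37.2% higher and 36.4% lower in cisplatin kidneys, and in 86.3% the groups did not overlap. Among the members all 9 were called, 2 higher and 7 lower, and in all 9 the groups did not overlap on the scaled values. The median log2 fold change of the members was -1.07, and that of all tested genes was 0.04. Over the alternatives the members' median ranged from -1.11 to -0.37, and it was -0.70 with library size alone. With library size alone, which moved the median of all genes to 0.41, 9110 genes (52.3%) were called higher and 4207 (24.2%) lower in place of 6487 and 6333, and among the members 2 were higher and 6 lower. With upper-quartile scaling 41.9% of genes were called higher and 32.3% lower, and again 2 members were higher and 6 lower. In bulk tissue, fewer cells of a type and less RNA per cell cannot be told apart. The 2 libraries of each group are biological replicates by the series' design text. Nothing says whether each came from 1 animal, so p-values measure the spread between these libraries, which was small (biological coefficient of variation 6.42%). The fit pools that spread over all tested genes, so very small p-values do not rest on the libraries of 1 gene alone.

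Transcripts of all 3 PAR bZIP activators were lower after cisplatin, Dbp and Hlf by more than 10-fold, while their antagonist Nfil3 was 9.37-fold higher. Dbp, at chr7:45705088-45710203 on the plus strand (GRCm38, GENCODE M21), had 8.89 and 9.85 CPM in the cisplatin libraries, against 111 and 112 CPM in the saline libraries. The means were 9.37 ± 0.679 CPM after cisplatin and 111 ± 0.406 CPM after saline (SD, n = 2 each), an 11.8-fold lower level with a log2 fold change of -3.57 and an SE of 0.07 (edgeR quasi-likelihood adjusted p = 1.09e-18). Only 0.758% of the tested genes had a lower fold change than Dbp. Both cisplatin libraries lay far below both saline libraries, and the gap was many times the difference within either pair.

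Hlf, first known as a fusion partner in leukemia and located at chr11:90336536-90390895 on the minus strand, had 8.72 and 7.93 CPM after cisplatin, against 104 and 103 CPM after saline. Its log2 fold change was -3.64 (SE 0.08, edgeR quasi-likelihood adjusted p = 1.24e-18), a 12.5-fold lower level. Tef, first described as a thyrotroph factor and located at chr15:81802421-81826863 on the plus strand, had 114 and 115 CPM after cisplatin, against 358 and 373 CPM after saline. That was 3.19-fold lower, with a log2 fold change of -1.67 and an SE of 0.06 (edgeR quasi-likelihood adjusted p = 2.82e-15). Tef thus had the smallest fold change of these 3 activators, and per length it was the most abundant of them in both groups.

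Nfil3, a bZIP repressor that also directs the development of innate lymphoid cells and lies at chr13:52967209-52981073 on the minus strand, had 17.7 and 16.4 CPM after cisplatin, against 1.68 and 1.92 CPM after saline. It was 9.37-fold higher, with a log2 fold change of 3.23 and an SE of 0.16 (edgeR quasi-likelihood adjusted p = 5.04e-13), and 2.77% of all tested genes had a higher one. The saline level rested on 31 and 47 counts, whose exact Poisson 95% intervals were 21.1 to 44.0 and 34.5 to 62.5 counts. The cisplatin libraries held 421 and 425 counts, so the groups lay well apart at this depth. Intervals cover counting error only.

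**Figure D1:**
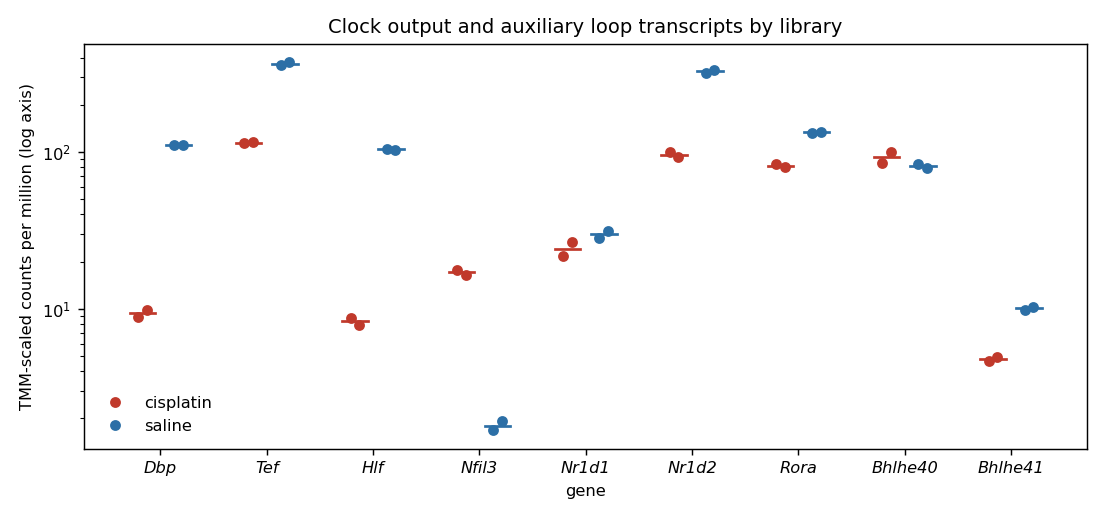
TMM-scaled CPM (log axis) of the 9 genes in each library, with cisplatin in red at the left and saline in blue at the right of each pair, and a line at the mean of 2 libraries. Dbp and Hlf stand near 9 CPM after cisplatin and above 100 CPM after saline, Nfil3 shows the opposite order, and the points of Nr1d1 and Bhlhe40 lie close together.

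On the deposited FPKM scale, which divides by transcript length and allows genes to be set side by side, Tef, Dbp and Hlf summed to 21.5 and 21.6 FPKM in the cisplatin libraries and to 85.8 and 96.4 FPKM in the saline libraries. Tef supplied 78.8 and 78.0% of that sum after cisplatin, against 48.6 and 49.6% after saline. The share of Dbp was 16.2 and 17.5% after cisplatin and 39.6 and 39.0% after saline, and that of Hlf 5.03 and 4.49% after cisplatin and 11.8 and 11.4% after saline. Nfil3 stood at 6.13 and 5.56 FPKM after cisplatin, and at 0.45 and 0.57 FPKM after saline. It made up 22.2 and 20.5% of the summed FPKM of these 4 D-box factors after cisplatin, against 0.522 and 0.588% after saline.

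**Figure D2:**
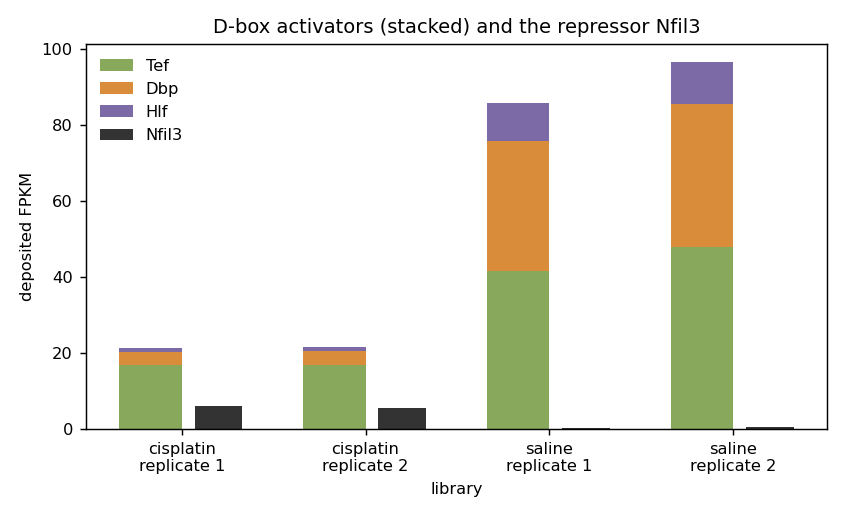
Deposited FPKM of Tef, Dbp and Hlf (stacked bars) and of Nfil3 (black bars) in each of the 4 libraries, cisplatin at the left. The stack reaches 21.5 and 21.6 FPKM after cisplatin and 85.8 and 96.4 FPKM after saline, and Tef makes up most of what is left after cisplatin.

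Ratios between members of 1 library do not depend on how libraries are scaled. Dbp per Nfil3, as a ratio of FPKM, was 0.568 and 0.682 in the cisplatin libraries, against 75.5 and 66.0 in the saline libraries. The read counts gave a 113-fold lower ratio after cisplatin, a log2 difference of -6.82. Hlf per Nfil3 was 0.176 and 0.174 after cisplatin, against 22.5 and 19.4 after saline (log2 difference of counts -6.89). Tef per Nfil3 was 2.76 and 3.03 after cisplatin, against 92.7 and 83.8 after saline (log2 difference -4.92). Of the D-box activators, Tef alone still exceeded Nfil3 per length in both cisplatin libraries.

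Dbp per Hlf was 3.22 and 3.91 after cisplatin and 3.35 and 3.41 after saline, with overlapping groups and a log2 difference of counts of 0.07. Leaving out cisplatin replicate 2 turned that difference to -0.07. In all 8 ratios were compared. Of these, 7 had groups that did not overlap, at a two-sided exact permutation p of 0.333, the smallest that 2 against 2 libraries can give (0.381 after Benjamini-Hochberg adjustment over the 8), and Dbp per Hlf had an exact permutation p of 1.

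**Figure D3:**
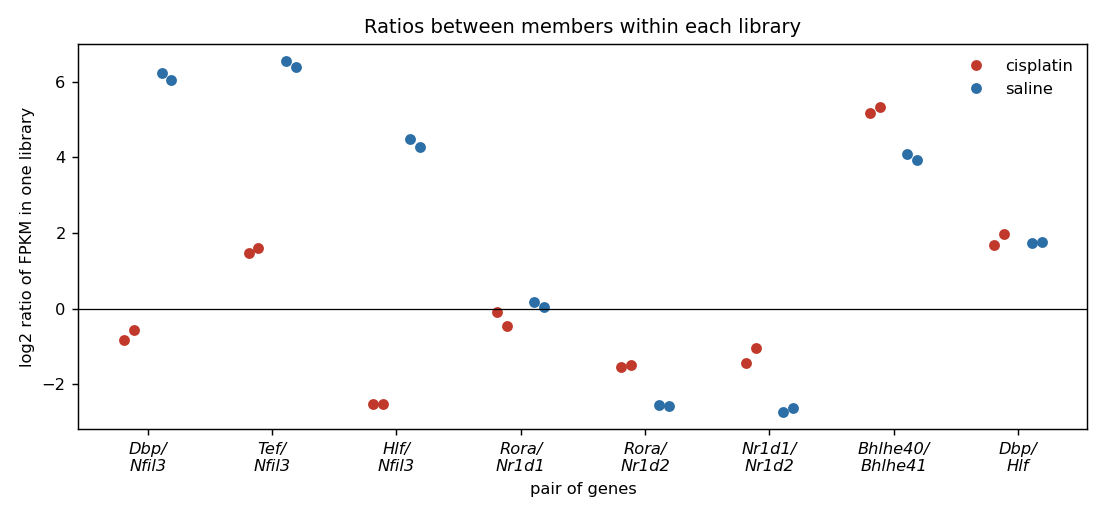
Log2 ratio of FPKM between 2 genes of the same library for 8 pairs, cisplatin in red at the left and saline in blue at the right, 1 point a library. The 3 ratios to Nfil3 differ most between groups, and only Dbp per Hlf overlaps.

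Both REV-ERB genes encode heme-sensing nuclear receptors with largely shared targets, and Nr1d2 was 3.39-fold and Nr1d1 1.24-fold lower after cisplatin. Nr1d2, at chr14:18204054-18239127 on the minus strand, had 99.8 and 93.0 CPM in the cisplatin libraries, against 321 and 332 CPM in the saline libraries. Its log2 fold change was -1.76 with an SE of 0.06 (edgeR quasi-likelihood adjusted p = 2.09e-15). Nr1d1, at chr11:98767932-98775333 on the minus strand, had 21.6 and 26.6 CPM after cisplatin, against 28.4 and 31.4 CPM after saline. The closest libraries of the 2 groups lay nearer to each other than the libraries within either group did.

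For Nr1d1 the log2 fold change was -0.31 (SE 0.10, edgeR quasi-likelihood adjusted p = 0.0104), but with library size alone it turned to 0.05 (adjusted p = 0.654) and it was not called with upper-quartile scaling, with limma on FPKM, without cisplatin replicate 1 or without saline replicate 2. Without cisplatin replicate 1 the value was -0.17 (adjusted p = 0.196), and without saline replicate 2 it was -0.23 (adjusted p = 0.0556), within a range of 0.000439 to 0.833 for the adjusted p over all alternatives. As a share of the library total, Nr1d1 stood at 24.8 and 29.9 unscaled CPM after cisplatin and at 24.4 and 28.3 unscaled CPM after saline, and there the groups overlapped. Set against the median of all genes in the same fit, its log2 fold change was -0.35 with TMM and -0.35 with library size alone. Scaling moves all genes nearly alike, so these values had to match and add no support. By the same measure Nr1d1 stood at -0.08 on log2(FPKM + 1), -0.21 without cisplatin replicate 1 and -0.50 without cisplatin replicate 2. Nr1d1 per Nr1d2, as a ratio of FPKM, was 0.371 and 0.490 after cisplatin, against 0.152 and 0.162 after saline, a log2 difference of counts of 1.44.

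The 3′ end of Nr1d1 is shared with Thra, the thyroid hormone receptor gene on the opposite strand (chr11:98740638-98769006, GENCODE M21 on GRCm38). The overlap covers 263 exon bases, or 8.55% of those of Nr1d1. The libraries were directional, but the sources used here do not say whether counting used strand. Reads of the shared bases may therefore have been counted for either gene. Thra had 19.5 and 19.5 CPM after cisplatin, against 30.6 and 28.4 CPM after saline (log2 fold change -0.59, edgeR quasi-likelihood adjusted p = 8.43e-06). Dbp likewise shares 18.01% of its exon bases with Sphk2 on the other strand, which had 14.1 and 16.5 CPM after cisplatin and 16.4 and 17.9 CPM after saline and was not called. Bhlhe41 shares 19.0% with the gene model Gm43909, which was not analysed here.

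Rora, the activator that competes with the REV-ERB proteins, located at chr9:68653786-69388246 on the plus strand, had 83.5 and 80.4 CPM in the cisplatin libraries, against 133 and 134 CPM in the saline libraries. It was 1.63-fold lower, with a log2 fold change of -0.70 and an SE of 0.06 (edgeR quasi-likelihood adjusted p = 6.90e-10), and with library size alone the log2 fold change was -0.34, still called. Rora per Nr1d2 was 0.347 and 0.358 by FPKM after cisplatin, against 0.171 and 0.168 after saline, a 2.08-fold higher ratio of counts. Rora per Nr1d1 was 0.935 and 0.731 after cisplatin, against 1.13 and 1.03 after saline. The log2 difference of that ratio was -0.39 by counts and -0.57 to -0.21 with a library left out, and it rests on the counts of Nr1d1, which may include reads of Thra.

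The 2 DEC genes also parted. Bhlhe41, at chr6:145858243-145865558 on the minus strand, had 4.68 and 4.92 CPM after cisplatin, against 9.79 and 10.3 CPM after saline, a 2.09-fold lower level with a log2 fold change of -1.07 and an SE of 0.15 (edgeR quasi-likelihood adjusted p = 2.28e-06). Bhlhe40, at chr6:108660629-108666925 on the plus strand, had 84.7 and 99.9 CPM after cisplatin, against 84.1 and 78.7 CPM after saline. Its log2 fold change was 0.19 (SE 0.07, edgeR quasi-likelihood adjusted p = 0.0190), and cisplatin replicate 1 lay almost level with saline replicate 1.

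The call of Bhlhe40 did not hold with DESeq2 (adjusted p = 0.145), without cisplatin replicate 2 (log2 fold change 0.06, edgeR quasi-likelihood adjusted p = 0.500) or without saline replicate 2 (0.13, adjusted p = 0.0798). It stood at 0.55 with library size alone, and the adjusted p ranged up to 0.500 over all alternatives. Bhlhe40 per Bhlhe41, as a ratio of FPKM, was 36.0 and 40.2 after cisplatin, against 16.9 and 15.1 after saline, a 2.37-fold higher ratio of counts.

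**Figure D4:**
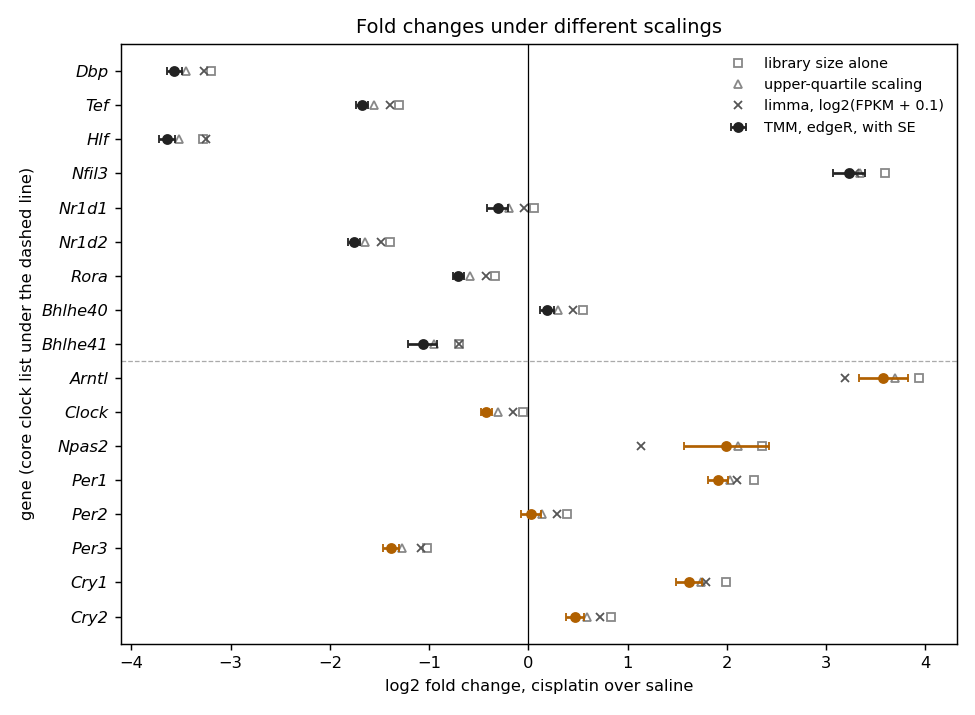
Log2 fold change, cisplatin over saline, of the 9 members (above the dashed line) and of the 8 core clock genes (below it), with the TMM fit as filled points with standard errors and 3 other analyses as open symbols or crosses. Dbp, Tef, Hlf, Nr1d2, Rora and Bhlhe41 stay left of 0 and Nfil3 and Bhlhe40 right of it in each of these, whereas Nr1d1 reaches 0.05 with library size alone.

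The order of the members by length-scaled level changed between groups. In the cisplatin libraries Bhlhe40 was highest at 18.7 and 21.7 FPKM, followed by Tef (16.9 and 16.9), Nr1d2 (14.98 and 13.73), Nr1d1 (5.56 and 6.73), Nfil3, Rora (5.20 and 4.92), Dbp (3.48 and 3.79), Hlf (1.08 and 0.97) and Bhlhe41 (0.52 and 0.54). Neighbours were taken as apart if the lowest value of 1 gene exceeded the highest of the next over both libraries. All neighbours in this order were apart except Nr1d1 and Nfil3. In the saline libraries Tef was highest at 41.7 and 47.8 FPKM, followed by Nr1d2 (37.7 and 43.0), Dbp (33.97 and 37.6), Bhlhe40 (14.54 and 14.98), Hlf (10.13 and 11.04), Rora (6.47 and 7.21), Nr1d1 (5.72 and 6.97), Bhlhe41 (0.86 and 0.99) and Nfil3. There Tef was not apart from Nr1d2, nor Rora from Nr1d1, although Tef and Rora were the higher of their pairs within each saline library. Dbp thus stood at rank 7 after cisplatin and rank 3 after saline, and Nfil3 at rank 5 after cisplatin and rank 9 after saline.

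Of the 8 core clock genes 5 were higher and 2 lower after cisplatin, with a median log2 fold change of 1.05 that ranged from 0.40 to 1.41 over the alternatives. For this list and those below, the shares over all tested genes were 37.2% called higher and 36.4% called lower. Arntl, the BMAL1 gene whose window holds the ROR core printed above, had 9.52 and 8.46 CPM after cisplatin, against 1.03 and 0.532 CPM after saline (log2 fold change 3.58, SE 0.25, edgeR quasi-likelihood adjusted p = 9.14e-11). Its saline level rested on 19 and 13 counts. Dbp per Arntl was 1.52 and 1.89 by FPKM after cisplatin, against 179 and 342 after saline, a ratio chosen after its values were seen. Npas2, the paralog of Clock, had 1.60 and 1.23 CPM after cisplatin and 0.433 and 0.287 CPM after saline. These levels rested on 38 and 32 counts after cisplatin and on 8 and 7 counts after saline. The log2 fold change of Npas2 was 1.99, and it ranged from 0.23 to 2.35 over the alternatives. Clock itself had 87.1 and 80.5 CPM after cisplatin and 113 and 112 CPM after saline, and was called (log2 fold change -0.42) but not with library size alone or on FPKM.

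The genes whose products inhibit CLOCK and BMAL1 differed among themselves. Per1 had 43.7 and 51.1 CPM after cisplatin, against 12.004 and 13.1 CPM after saline (log2 fold change 1.91), and Cry1 had 15.4 and 15.9 CPM after cisplatin, against 5.19 and 5.00 CPM after saline (1.62). Cry2 had 28.5 and 28.3 CPM after cisplatin, against 19.5 and 21.4 CPM after saline (0.47). Per3, with the 2 D-boxes printed above, had 21.1 and 19.8 CPM after cisplatin, against 53.0 and 53.7 CPM after saline (-1.39). Per2 did not pass, at 28.6 and 31.7 CPM after cisplatin and 33.1 and 26.7 CPM after saline (log2 fold change 0.02, edgeR quasi-likelihood adjusted p = 0.833). With library size alone it stood at 0.39 (edgeR quasi-likelihood adjusted p = 0.000582). Relative to the median of all genes Per2 was at -0.02 in both fits, a match that scaling fixes in advance. By that measure it ran from -0.20 without saline replicate 2 to 0.18 on log2(FPKM + 1).

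Of 15 genes that modify the clock, 4 were higher, 10 lower and 1 not called, with a median log2 fold change of -0.47, which was -0.11 with library size alone. By mean level the leading genes were Prkaa2, a catalytic subunit of the energy sensor AMPK (log2 fold change -1.82), Ncor1, the corepressor that REV-ERB proteins recruit (-0.56), and Id2, an inhibitor of helix-loop-helix factors (-0.38, not called with library size alone or on FPKM). Of 12 other genes known to cycle in many tissues or in kidney, 8 were higher and 4 lower, with a median of 0.42. The most abundant were Nampt, the NAD salvage enzyme, with 188 and 179 CPM after cisplatin against 295 and 309 CPM after saline, Herpud1, an endoplasmic reticulum stress gene, with 62.5 and 67.5 CPM after cisplatin against 287 and 294 CPM after saline, and the kinase gene Sgk1, which acts on sodium transport, with 197 and 198 CPM after cisplatin against 74.9 and 81.6 CPM after saline.

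Of 10 genes reported to depend on PAR bZIP factors in liver or brain of mice, 8 were lower and 2 higher after cisplatin, with a median log2 fold change of -1.25. The list shares Per3 with the core clock genes. Among all tested genes 36.4% were called lower and 37.2% higher. Cyp2a4, a steroid hydroxylase gene with a close copy in Cyp2a5, had 52.9 and 50.8 CPM after cisplatin, against 332 and 318 CPM after saline. Reads may be split between these copies. Alas1, the first enzyme of heme synthesis, had 114 and 114 CPM after cisplatin, against 245 and 248 CPM after saline. The 2 higher genes were Aldh1a1, a retinal dehydrogenase gene, with 19.6 and 17.7 CPM after cisplatin against 6.54 and 6.10 CPM after saline, and Cyp2b10, a drug-inducible cytochrome P450 gene. Cyp2b10 rested on 11 and 11 counts after cisplatin against 0 and 3 counts after saline, and without cisplatin replicate 1, without cisplatin replicate 2 or without saline replicate 1 the list held 1 gene called higher. Por, the electron donor of the cytochromes P450, had 136 and 157 CPM after cisplatin and 162 and 166 CPM after saline (log2 fold change -0.16, edgeR quasi-likelihood adjusted p = 0.0379), and its call was weak. It was not called without cisplatin replicate 1 (-0.06, adjusted p = 0.437), without saline replicate 2 (-0.15, adjusted p = 0.102), with upper-quartile scaling (-0.04, adjusted p = 0.574) or with a filter of 1 CPM in 2 libraries (-0.13, adjusted p = 0.0841). Por turned to 0.21 with library size alone (edgeR quasi-likelihood adjusted p = 0.0160) and to 0.11 on FPKM with a pseudocount of 0.1. Relative to the median of all genes it stood at -0.20 both with TMM and with library size alone, a match that scaling fixes in advance. By that measure Por stood at -0.10 on log2(FPKM + 0.1) and 0.06 on log2(FPKM + 1). It was -0.10 without cisplatin replicate 1 and -0.30 without cisplatin replicate 2.

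Of 10 genes known as repressed by REV-ERB proteins, 9 were tested, 7 of them higher and 2 lower. The list contains Nfil3 and 4 core clock genes. Its median log2 fold change of 3.23 was the value of Nfil3 itself, so it adds nothing beyond that member. A gene without saline counts lay above this median both as fitted and at its floor, so the median was equal either way. Over the alternatives the median ranged from 1.26 to 3.59. Both lower genes, Clock and Insig2, were not called with library size alone. The list also holds the inflammatory genes Ccl2, a monocyte attractant, and Il6, a cytokine. Il6 had 114 and 141 counts in the cisplatin libraries and 0 in the saline libraries, so it was at least 73.4-fold higher against a floor of 3 counts over the saline group. Insig2, a brake on sterol synthesis, had 36.4 and 35.3 CPM after cisplatin, against 52.5 and 44.1 CPM after saline. Of 10 genes induced by hypoxia, which also induces the DEC genes, 5 were higher and 5 lower, with a median of -0.19. The most abundant of them were lower, with Ndrg1 at 234 and 232 CPM after cisplatin against 1009 and 970.5 CPM after saline, Bnip3 at 70.1 and 68.3 CPM after cisplatin against 211 and 225 CPM after saline, and Vegfa at 89.3 and 93.8 CPM after cisplatin against 157 and 154 CPM after saline.

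**Figure D5:**
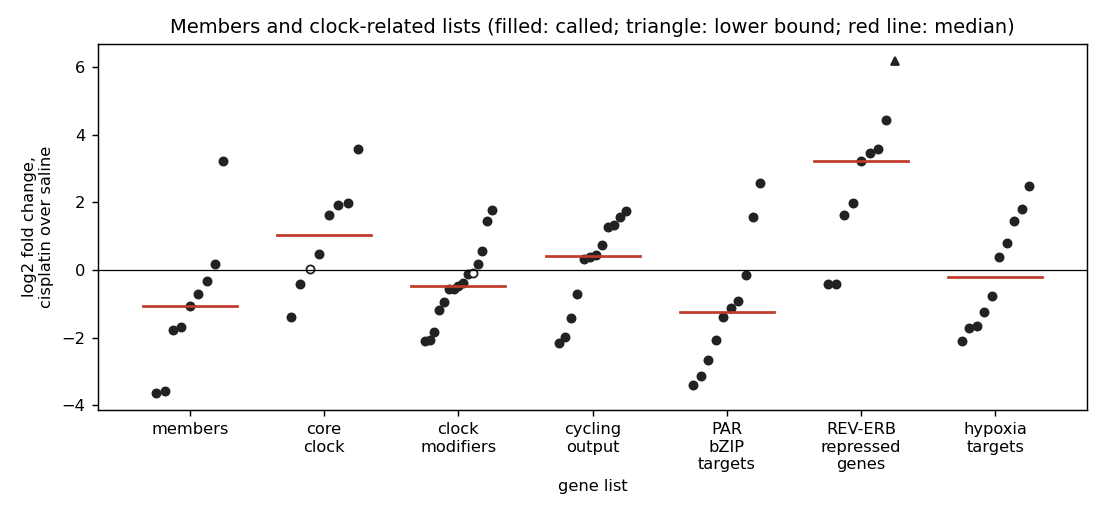
Log2 fold change, cisplatin over saline, of the tested genes of the 9 members and of 6 clock-related lists, 1 point a gene, ordered by value within a list, with the median as a red line. Points below 0 prevail among the members and the PAR bZIP targets, points above 0 among the core clock genes and the genes repressed by REV-ERB proteins, and the triangle is the lower bound for Il6.

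Nearness of profiles was measured as the distance between centred log2 CPM over the 4 libraries, among the 11541 tested genes whose mean reached 5 CPM. Nearest to Dbp were Fggy, Acnat2 and Pck1, at distances of 0.06, 0.11 and 0.11. Nearest to Nfil3 were S100a6, Pdk4 and Phlda1, at 0.08, 0.13 and 0.13. Nearest to Nr1d1 were Pafah1b3, Thumpd2 and 1300002E11Rik, at 0.04, 0.06 and 0.07. With 4 libraries in 2 groups such a distance mainly reflects a similar fold change.

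Markers of kidney and other cells moved in the same libraries, and their part in the results above was not tested. Their counts stand beside 37.2% of all tested genes called higher and 36.4% called lower. All 7 markers of the proximal tubule were lower, with summed levels of 2541 to 2574 CPM after cisplatin and 15793 to 15988 CPM after saline, and all 6 of the thick limb and distal tubule were lower, at 1970 to 2052 CPM after cisplatin and 5200 to 5329 CPM after saline. In the collecting duct list 4 of 6 were lower and 2 higher, at 146 to 149 CPM after cisplatin and 256 to 259 CPM after saline. Macrophage and monocyte markers were higher in 5 of 7 cases and lower in 1, with 205 to 219 CPM after cisplatin and 70.9 to 76.2 CPM after saline. Much of that sum was Cd68, with 63.4 and 75.9 CPM after cisplatin against 1.68 and 1.56 CPM after saline. Csf1r was the lower marker (log2 fold change -0.28), and Ccr2 was not called. The 4 tested of 5 neutrophil markers were higher, with 16.9 to 18.2 CPM after cisplatin and 0.696 to 1.30 CPM after saline. Of 9 genes listed for T cells, NK cells and innate lymphoid cells, which use Nfil3 and Rora, 8 were tested and 4 were higher. Ptprc and Gata3 of this list are not particular to these cells. The 9 genes summed to 34.88 to 34.97 CPM after cisplatin and 26.1 to 26.9 CPM after saline. Ptprc was the largest part, with 20.98 and 20.2 CPM after cisplatin and 16.11 and 17.97 CPM after saline. Gata3 came next, with 8.17 and 8.77 CPM after cisplatin and 5.245 and 4.14 CPM after saline. Each other gene of the list lay below Gata3 in every library, so the sum mostly reflects Ptprc and Gata3. Gata3, Cd4 and Il7r were also called higher, whereas Cd3e, Cd3g, Cd8a and Klrb1c were not called. Ncr1 was not tested, at 2 and 3 counts after cisplatin and 8 and 7 counts after saline. The genes of the T cell receptor complex Cd3e and Cd3g stayed under 1 CPM in every library. Podocyte markers were higher in 4 of 4 cases, fibroblast and mural markers in 5 of 5, and endothelial markers in 3 of 5 with 1 lower. No marker was at 0 in all 4 libraries, and the neutrophil marker Ly6g had 0 counts in both saline libraries.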

How the data were processed

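Kidney RNA was depleted of ribosomal RNA and sequenced as paired reads of 150 nt from directional libraries, per the labels' protocols. The authors deposited raw read counts per gene (29190 genes) and FPKM values (29157 genes). The build GRCm38 and the tools TopHat2, bcl2fastq and edgeR come with no version, per the submitters' processing notes. What program counted the reads, whether it used strand and with which annotation is not stated there. Groups came from the treatment label, and columns were matched to samples by title.

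The test was that of edgeR 4.0.16 (R 4.3.3) on the counts of the whole table (filterByExpr, TMM, quasi-likelihood F test, group as the only term, 2 residual degrees of freedom), with Benjamini-Hochberg adjustment over 17419 genes. Standard errors follow from the fold change and its F statistic. A fold against a group at 0 counts used a floor of 3 counts over the libraries of that group together. Intervals and floors cover counting error only. The fit was first tested on simulated counts. Replicates differed by more than sampling noise (chi-square over degrees of freedom 11.5 for cisplatin and 36.6 for saline). Same-numbered libraries did not deviate together (r = -0.02 across genes), so the number was not used as a block in the main test. Alternatives were other scalings and filters, a replicate block, DESeq2 1.42.0, limma 3.58.1 on log2(FPKM + 0.1) and log2(FPKM + 1), and each library left out. Exact permutation tests used scipy 1.17.1. Motifs were searched in RefSeq promoter windows (GRCm38.p6), and gene positions came from GENCODE M21.

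Members and lists were chosen with earlier results of these data known. Named genes were all members, all 8 core clock genes, the 3 most abundant tested genes of every other list, and the 3 nearest profiles to Dbp, Nr1d1 and Nfil3. A gene that this rule names in 1 list is not reported here. Ccl2, Il6, Cyp2a5, Thra, Sphk2 and the single markers were named for their lists or positions. Aldh1a1 and Cyp2b10 were named for their result, as the 2 PAR bZIP targets called higher.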

Additional observations from a re-analysis of the deposited data

How the results depend on the processing

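The calls and directions of Dbp, Tef, Hlf, Nfil3, Nr1d2, Rora and Bhlhe41 held under all 13 alternatives. Their log2 fold changes ranged from -3.64 to -2.99 for Dbp, -3.71 to -2.52 for Hlf and 2.18 to 3.59 for Nfil3, with the smallest sizes on log2(FPKM + 1), where the pseudocount shrinks changes of low genes. The number of members called higher was 1 with DESeq2 and 1 to 2 with a library left out, since Bhlhe40 was lost, and the number called lower was 6 to 7. Genes called lower numbered 4207 with library size alone and 3804 and 3784 on FPKM with pseudocounts of 0.1 and 1, against 6333 with TMM. In the same 3 settings the core clock genes called lower numbered 1, the clock modifiers called lower 6, 5 and 5, and the genes repressed by REV-ERB proteins called lower 0, also 0 at an unadjusted p under 0.05, against 2 by DESeq2 and edgeR with TMM. PAR bZIP targets called higher numbered 1 with a filter of 1 CPM in 2 libraries and with DESeq2, and 1 to 2 with a library left out. Signs turned for Nr1d1 (0.053, library size alone), Per2 (-0.00088 with DESeq2, and -0.13 to 0.17 with a library left out), Por (0.21 with library size alone, 0.11 and 0.10 on FPKM) and the median of the hypoxia targets (0.17 with library size alone, 0.069 and 0.013 on FPKM). List medians moved most with library size alone and on FPKM, and their ranges over the alternatives were -1.11 to -0.37 for the members, 0.40 to 1.41 for the core clock, -0.50 to -0.11 for the clock modifiers, 0.39 to 0.79 for the cycling genes, -1.43 to -0.71 for the PAR bZIP targets and 1.26 to 3.59 for the genes repressed by REV-ERB proteins. The log2 difference of Dbp per Hlf was -0.072 to 0.21 with a library left out. The cause of these changes was not tested. With the replicate block 6382 genes were called higher and 6271 lower, 2 and 7 of them members, and no member's call changed. Depth limits Nfil3 and Arntl in saline kidneys and Npas2 in both groups, where these genes rest on fewer than 50 counts a library.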

Other observations

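Values of 4 further genes of the clock-related lists were picked out after they were seen, and describe no group. Usp2, a deubiquitinase gene that cycles in many organs, had 23.9 and 22.8 CPM in the cisplatin libraries, against 97.7 and 87.1 CPM in the saline libraries (log2 fold change -1.98). Ciart, a clock repressor gene, had 4.13 and 5.501 CPM after cisplatin, against 22.8 and 17.8 CPM after saline (-2.06). Tsc22d3, a leucine zipper gene, had 113 and 108 CPM after cisplatin, against 45.6 and 46.4 CPM after saline (1.26). Fkbp5, which encodes a cochaperone, had 143 and 146 CPM after cisplatin, against 49.4 and 48.2 CPM after saline (1.57).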
